A study of Mus musculus with 8 samples.

Results

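Krt4, Aqp5 and F3 are 3 genes of epithelia whose transcripts were far more abundant a few hours after 17β-estradiol (E2) than in vehicle-treated mouse mammary gland. They were selected on these same intensities, because they stood highest near 3 h, so their time courses are given as a description and no test is attached to them. All probe sets annotated to the 3 symbols were taken, which gave 4 of the 45101 probe sets on the array and 3 of the 18193 genes with an unambiguous symbol. Krt4 had 2 probe sets, and Aqp5 and F3 had 1 each.

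The tissue was the inguinal mammary gland of gonadectomized virgin mice aged 12 to 13 weeks, and no strain is named in the labels. Gonadectomy, carried out in every group including the controls, removes the gonads as the main source of estrogen. Vehicle was represented by 2 arrays, both titled 24 h, and subcutaneous E2 by 1 array at each of 6 times after treatment, the early ones at 1, 3 and 6 h and the late ones at 12, 18 and 24 h. The times come from the sample titles, whereas the description of every sample reads 24 h, and the dose is not stated here because the labels give it in conflicting units. The labels do not say whether an array held RNA of 1 mouse or of a pool. With 1 array per time, a difference at any time has no replicate check, and all times share the same vehicle arrays. No vehicle array was titled 1 to 18 h, so at those times the hormone, the injection and the time of day cannot be told apart.

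Keratin 4, the product of Krt4, is a type II intermediate filament protein best known from the suprabasal layers of stratified, non-cornified epithelia such as the esophagus, where it pairs with the type I keratin encoded by Krt13. Aquaporin 5, from Aqp5, is a water channel of the apical membrane of secretory epithelium in salivary, lacrimal and airway glands. F3 encodes tissue factor, the membrane receptor for coagulation factor VII that starts the extrinsic clotting pathway and, together with factor VII, can also signal through protease-activated receptors. Estrogen acts in the mammary gland largely through the estrogen receptor alpha of luminal epithelial cells, which works at estrogen response elements and also by tethering to other factors, among them the Fos and Jun proteins of AP-1.

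The promoters of 2 of the 3 genes were available from RefSeq (build GRCm38.p6). They are shown as a description only, since the genes were selected for their common peak near 3 h. Each runs from 250 bases before to 50 bases after the annotated gene start, 5′ to 3′. Capitals mark GGTCA, a single arm of the estrogen response element, or its complement TGACC, and TGANTCA, the AP-1 motif. The Aqp5 promoter lies at chr15:99590778-99591077 on the plus strand and the F3 promoter at chr3:121723287-121723586 on the plus strand.
Aqp5: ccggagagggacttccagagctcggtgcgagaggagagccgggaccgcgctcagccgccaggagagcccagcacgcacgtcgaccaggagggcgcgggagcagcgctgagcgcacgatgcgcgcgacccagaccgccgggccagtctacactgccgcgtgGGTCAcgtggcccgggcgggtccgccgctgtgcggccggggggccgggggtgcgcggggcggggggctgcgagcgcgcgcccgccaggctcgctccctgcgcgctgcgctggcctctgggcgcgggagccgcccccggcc
F3: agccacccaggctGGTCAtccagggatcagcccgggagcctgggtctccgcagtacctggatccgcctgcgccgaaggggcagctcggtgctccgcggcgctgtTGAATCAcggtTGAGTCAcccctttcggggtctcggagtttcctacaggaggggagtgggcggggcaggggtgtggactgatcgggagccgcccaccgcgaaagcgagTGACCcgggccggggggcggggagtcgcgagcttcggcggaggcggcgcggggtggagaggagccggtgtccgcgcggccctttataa

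Both windows were rich in G and C, at 79.7% for Aqp5 and 70.3% for F3, against a median of 52.7% over the 32817 promoters of the table. The F3 window held 2 AP-1 motifs, TGAATCA beginning 146 bases and TGAGTCA beginning 135 bases before the gene start. The Aqp5 window held none, and 7.81% of all promoters held at least 1. The Aqp5 window had 1 GGTCA, beginning 90 bases before the start and overlapping the E-box CACGTG, which 7.15% of promoters held. The F3 window had 1 GGTCA 237 bases and 1 TGACC 38 bases before the start, a motif that 40.5% of promoters held on either strand. The complete palindromic estrogen response element was in neither window and in 0.0701% of promoters. Each window had 3 GC boxes, GGGCGG or its complement, which 35.6% of promoters held. The EGR motif, GCGNGGGCG, was in neither window and in 5.56% of promoters. A match of this kind is a run of letters and was not tested as a binding site.

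The 8 arrays had median intensities from 173.9 to 180.5. Over 10916 genes the log2 differences between the vehicle arrays had an SD of 0.13, and 18 of these genes lay 1.5-fold apart but 0 lay 2-fold apart. Those 10916 genes had a mean log2 intensity at or above 7.72, the 40th percentile over genes, and are called tested genes here. Krt4, with a vehicle mean of 7.41, passed that level only through its E2 arrays. The markers of luminal epithelium that passed were 19 of 20, and 9 of 9 adipocyte markers did so. In whole tissue fewer cells of a type and less RNA per cell cannot be told apart.

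Krt4 had log2 intensities of 7.52 and 7.30 on the vehicle arrays, 8.18 at 1 h, 10.81 at 3 h and 9.94 at 6 h after E2, and 7.48 at 12 h, 7.49 at 18 h and 7.70 at 24 h. The 1, 3 and 6 h arrays were above both vehicle arrays, and the 12 and 18 h arrays lay between the vehicle arrays. At 3 h the difference from the vehicle mean of 7.41 ± 0.15 (SD, n = 2) was 3.40 on the log2 scale, or 10.6-fold. The steps in the order 3 h, 6 h, 1 h and 24 h, of 0.88, 1.76 and 0.48, exceeded the gap of 0.21 between the vehicle arrays, while the order of the remaining arrays rested on steps below it.

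The dimmer Krt4 probe set, a class of probe set whose probes can also match other transcripts, ran the same course. It had log2 intensities of 6.28 and 6.29 on the vehicle arrays, 6.71 at 1 h, 8.61 at 3 h and 7.45 at 6 h after E2, and 6.48 at 12 h, 6.55 at 18 h and 6.57 at 24 h. All 6 E2 arrays were above both vehicle arrays on this probe set, with 12, 18 and 24 h between 0.20 and 0.28 above the vehicle mean. Its 3 h difference, 2.33 or 5.03-fold, was smaller than that of the brighter probe set, and at 6 h it had come down further, to 1.17 against 2.53 on the brighter one. The 2 probe sets thus placed the peak at the same time and differed in its size by more than the vehicle arrays differed on either.

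Aqp5 had log2 intensities of 8.57 and 8.80 on the vehicle arrays, 9.66 at 1 h, 10.55 at 3 h and 9.40 at 6 h after E2, and 9.005 at 12 h, 8.71 at 18 h and 8.82 at 24 h. The arrays from 1 to 12 h were above both vehicle arrays, the 18 h array lay between them and the 24 h array was 0.02 above the higher of them. The 3 h array stood 1.86 above the vehicle mean of 8.68 ± 0.17 (SD, n = 2), or 3.63-fold. Unlike Krt4 and F3, Aqp5 was higher at 1 h than at 6 h, by 0.26, a step only slightly above the gap of 0.24 between its vehicle arrays.

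F3 had log2 intensities of 8.56 and 8.23 on the vehicle arrays, 9.16 at 1 h, 10.49 at 3 h and 9.62 at 6 h after E2, and 8.66 at 12 h, 8.19 at 18 h and 8.17 at 24 h. The arrays from 1 to 12 h were above both vehicle arrays and the 18 and 24 h arrays lay 0.03 and 0.05 below vehicle 2, the lower of them. The 3 h array stood 2.10 above the vehicle mean of 8.39 ± 0.23 (SD, n = 2), or 4.27-fold. The 12 h array was 0.10 above vehicle 1, less than the 0.33 between the vehicle arrays.

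**Figure D1:**
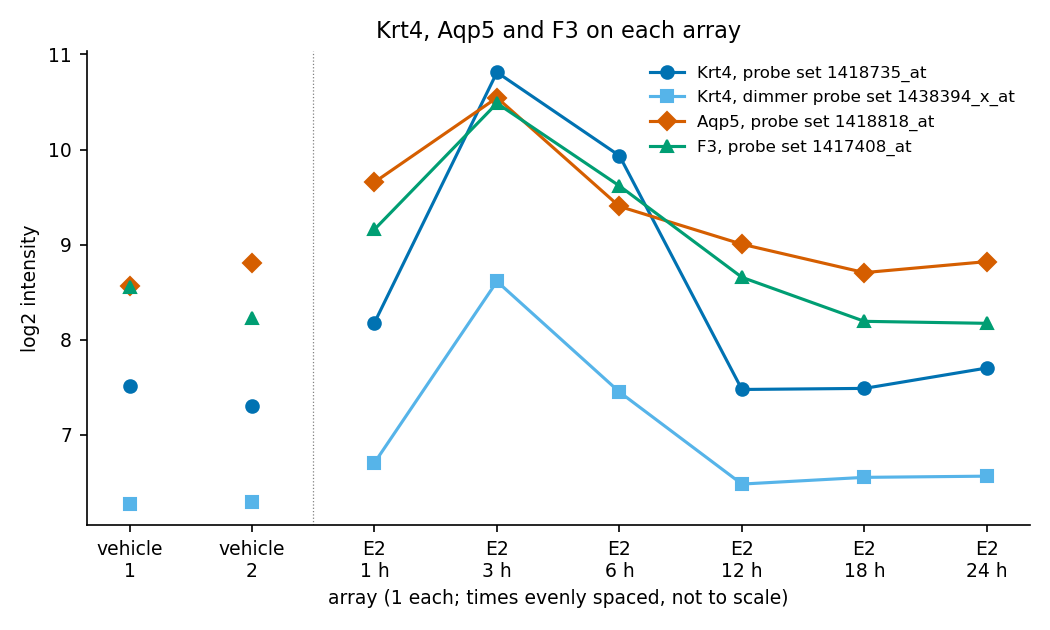
Log2 intensity of the 4 probe sets of Krt4, Aqp5 and F3 on the 2 vehicle arrays (unjoined points at the left) and the E2 arrays from 1 to 24 h, 1 array each; times are evenly spaced. All 4 probe sets are highest at 3 h, with 10.81 for Krt4 on its brighter probe set.

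Counted over the 3 genes, 0 were at least 2-fold above both vehicle arrays at 1 h, 3 at 3 h and 2, Krt4 and F3, at 6 h. Over all tested genes the share past that fold was 0.055% at 1 h, 0.137% at 3 h and 0.183% at 6 h. At 1.5-fold all 3 were above both vehicle arrays at 1, 3 and 6 h and 0 at 12, 18 or 24 h, where the shares of tested genes were 0.293%, 0.568%, 0.586%, 0.147%, 0.211% and 0.192% in that order of time. Since the genes were picked for this pattern, nothing follows from their count. Among tested genes, ordered by difference from the vehicle mean, Krt4 was number 1 at 3 h and at 6 h. F3 was number 4 and Aqp5 number 5 at 3 h, while at 6 h F3 was number 20 and Aqp5 number 56. At 1 h Aqp5 came first of the 3, at number 12, with Krt4 at number 25 and F3 at number 26. These counts and places take the brighter Krt4 probe set. The dimmer one was 1.34-fold above the vehicle mean at 1 h, so it was not past 1.5-fold. Its differences at 3 and 6 h, 2.33 and 1.17, were below those of Acot1 (2.51 and 1.31) and Pgr (2.43 and 1.60).

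Relative to their own 3 h arrays, the 3 genes stood at different levels at 1 h and at 6 h. Their log2 differences from the vehicle mean at 1 h were 0.77 for Krt4, 0.77 for F3 and 0.97 for Aqp5. The shares that follow therefore depend on the height at 3 h as well. At 1 h Aqp5 had reached 36.5% of its 3 h excess in intensity over the vehicle mean, F3 21.4% and Krt4 7.34%, or 8.45% on its dimmer probe set. At 6 h the excess that remained was 24.4% for Aqp5, 40.8% for F3 and 49.7% for Krt4, or 30.9% on the dimmer probe set. Aqp5 thus had the largest share of the 3 at 1 h and the smallest at 6 h, and Krt4 the smallest at 1 h. At 12 h the order differed again, with an excess of 9.32% for Aqp5, 5.98% for F3 and 0.469% for Krt4, or 3.66% on the dimmer probe set. For comparison, the vehicle arrays themselves lay 3.13% (Aqp5), 3.48% (F3) and 0.77% (Krt4) on either side of their mean on this scale. Each of these shares rests on 1 array per time and was not tested.

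**Figure D2:**
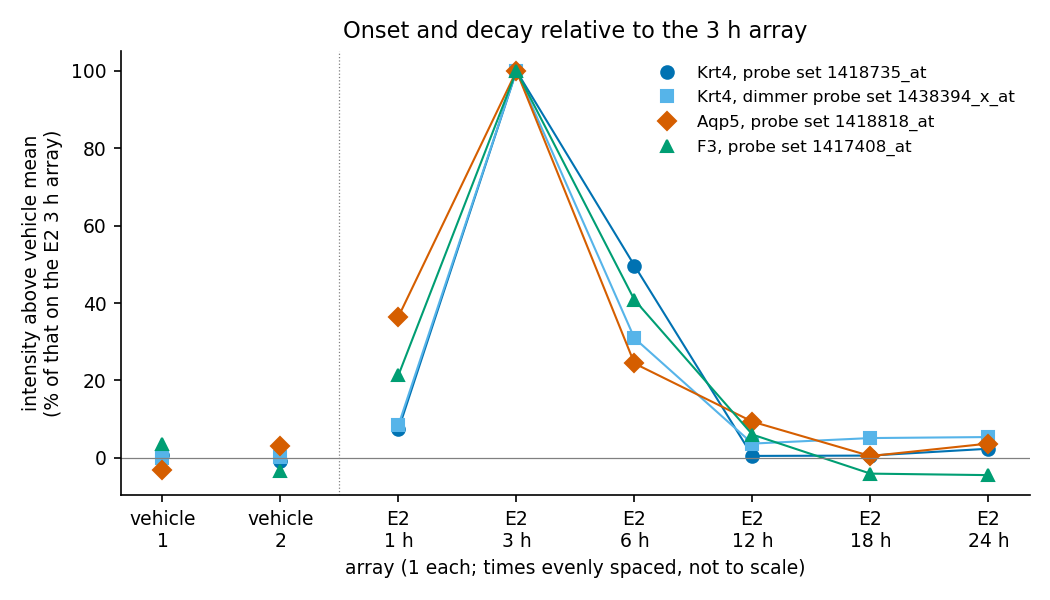
Intensity above the vehicle mean as a percentage of that on the E2 3 h array (vertical axis) for each probe set on each array (horizontal axis, times evenly spaced). At 1 h Aqp5 stands highest at 36.5%, and at 6 h it stands lowest at 24.4%, below Krt4 at 49.7%.

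The other 12 of the 15 tested genes at least 2-fold above both vehicle arrays at 3 h had other shapes as well. On the log2 scale, Krt4 had made 22.6% of its 3 h difference at 1 h, F3 36.7% and Aqp5 52.3%. The other 12 ranged from 0.564% (Osbpl3, an oxysterol-binding protein family gene) to 137% (Gadd45g, a growth arrest gene highest at 1 h), with a median of 47.4%. At 6 h the 3 genes kept 74.2% (Krt4), 58.5% (F3) and 38.6% (Aqp5) of it. They lay within the range of the other 12, which ran from 9.11% to 125% with a median of 48.2%. On its dimmer probe set Krt4 had made 18.1% at 1 h and kept 50.1% at 6 h, less than F3. At 12 h Krt4 kept 1.97% (8.51% on its dimmer probe set), F3 12.7% and Aqp5 17.2%. The other 12 then ran from -30.6% to 77.7%, with a median of 7.26%. Among them Pgr, the progesterone receptor gene and a textbook estrogen target, kept 53.4%. Of the 12, 8 were highest at 3 h, 2 at 1 h and 2 at 6 h. At least Acot1 and Slc25a33 among them passed the level of the test only through their E2 arrays, as Krt4 did.

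The genes of most similar profile were sought among the 110 tested genes whose highest and lowest arrays differed by at least 1 on the log2 scale. Pearson correlations over the 8 arrays, which share the vehicle arrays and the single 3 h array, are given as a description. Among themselves Krt4 and F3 had r = 0.95, Aqp5 and F3 r = 0.93 and Krt4 and Aqp5 r = 0.87. Without the 3 h array, over 7 arrays, these were 0.88, 0.82 and 0.66. The 5 nearest genes for each of the 3 made up 11 genes, with r from 0.93 to 0.98, or from 0.82 to 0.98 without the 3 h array.

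Acot1, a cytosolic acyl-CoA thioesterase, was the only gene among the nearest 5 of Krt4 (r = 0.94), Aqp5 (r = 0.97) and F3 (r = 0.96) alike. Its differences from the vehicle mean were 1.22 at 1 h, 2.51 at 3 h and 1.31 at 6 h, with -0.03 left at 12 h. With 7.13 and 7.22 on the vehicle arrays, Acot1 passed the level of the test only through its early E2 arrays. It thus entered this search through the arrays on which it is alike. Adamts1, a secreted metalloprotease, was nearest to F3 (r = 0.98) and also among the nearest of Aqp5 (r = 0.97), at 0.60, 1.14 and 0.59 at 1, 3 and 6 h. Il17ra, a receptor subunit for interleukin 17, was also shared by F3 (r = 0.95) and Aqp5 (r = 0.94), at 0.49, 1.08 and 0.52.

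Near Aqp5 alone stood Slc25a33, a mitochondrial carrier (r = 0.98), and Jdp2, a leucine zipper repressor that dimerises with Jun (r = 0.98). Like Aqp5, both were higher at 1 h (0.59 and 0.59) than at 6 h (0.26 and 0.31). Slc25a33, at 7.55 and 7.61 on the vehicle arrays, also passed the level of the test only through its early E2 arrays. Near Krt4 alone stood Plod2, which hydroxylates collagen lysines (r = 0.95), Thbs2, a matricellular thrombospondin (r = 0.95), Zmiz1, a transcriptional coregulator (r = 0.94), and Ccl12, a chemokine (r = 0.93). At 1 h these 4 were at 0.17, 0.07, -0.04 and 0.01, and Plod2 and Thbs2 were highest at 6 h, at 1.11 and 0.81. Near F3 alone stood Plin5, a lipid droplet protein (r = 0.94), and Mad2l1, of the spindle checkpoint (r = 0.93).

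**Figure D3:**
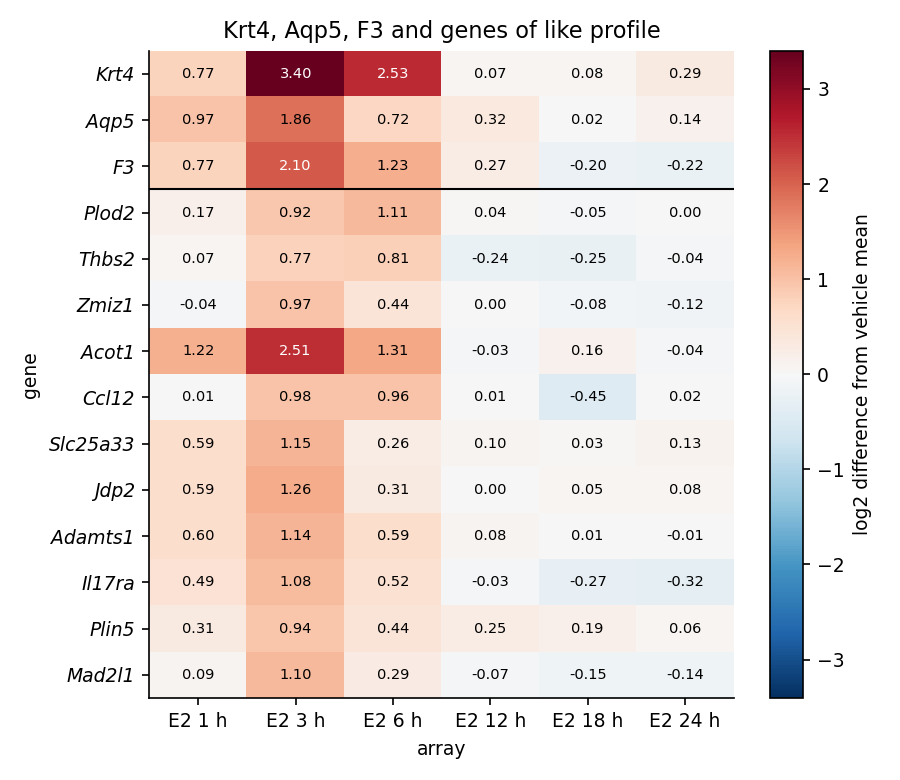
Log2 difference from the vehicle mean on each E2 array (columns) for Krt4, Aqp5 and F3 (above the line) and the 11 genes of most similar profile (below), red above and blue below vehicle. Differences at 3 h run from 0.77 for Thbs2 to 3.40 for Krt4.

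Other keratins did not share one course with Krt4. The simple keratins Krt8, Krt18 and Krt19, which fill luminal cells, lay at -0.54, -0.57 and -0.66 on the 3 h array, where Krt4 stood at 3.40. None of the 3 passed in limma at that time (adjusted p = 0.0696, 0.143 and 0.196), and none was 1.5-fold below both vehicle arrays. At 12 h, with Krt4 back between the vehicle arrays, Krt8 was at 1.37 and Krt18 at 0.81, both at least 1.5-fold above both vehicle arrays. In limma Krt8 passed at 12 h (adjusted p = 0.0135), where 0.0275% of tested genes were called higher, and Krt18 did not (adjusted p = 0.19). Krt7, also tested, was not past that fold at any time.

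Of 17 other keratins of stratified and basal epithelia, 4 were tested. With 0.568% of all tested genes 1.5-fold above and 0.229% below both vehicle arrays at 3 h, 0 of 4 is near that share. At the other times, too, 0 of the 4 were past that fold. Their median difference at 3 h was 0.12, against 0.01 over all tested genes. Krt5, the basal keratin of myoepithelium, lay at 0.25, Krt80 at 0.17 and Krt78 at 0.07. Krt13, the usual partner of Krt4, was below the level of the test and lay at 0.03.

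The other keratins below that level included 3, named here after their values were seen, that were at least 1.5-fold above both vehicle arrays at 3 h. They were Krt10, the type I keratin of suprabasal epidermis, at 1.64, and Krt77 and Krt79, known from skin appendages, at 1.27 and 0.91. Krt10 had log2 intensities of 7.06 and 6.99 on the vehicle arrays, 8.29 at 1 h, 8.67 at 3 h and 8.28 at 6 h after E2, and 7.20 at 12 h, 7.03 at 18 h and 7.11 at 24 h. Its 1, 3 and 6 h arrays stood apart from all others, as with Krt4, but its 1 h array was already at 1.27, where Krt4 was at 0.77. Krt1, the type II partner of Krt10, was highest at 6 h, at 1.06.

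Markers of epidermis moved on the same arrays. Over 23 epidermal keratinocyte genes, a list added after the data were seen and of which 5 passed the level of the test, the mean log2 difference was 0.30 at 1 h, 0.41 at 3 h and 0.37 at 6 h. At the later times it was 0.02 at 12 h, 0.10 at 18 h and 0.10 at 24 h. Of the 23, 17, 20 and 20 were above both vehicle arrays at 1, 3 and 6 h, where 36.1%, 32.9% and 41.3% of all genes were. The counts at 12, 18 and 24 h were 11, 15 and 14, where 35.7%, 36.3% and 40.9% of all genes were. The summed intensity of the 23 genes was 5679, 6352 and 6397 at 1, 3 and 6 h. It was between 5181 and 5330 at the later times, against 5187 and 4618 on the vehicle arrays. Krtdap, a keratinocyte differentiation gene, was at 0.98, 0.78 and 0.52, Lor, loricrin of the cornified envelope, at 0.15, 0.40 and 0.28, and Flg, filaggrin, at 0.17, 0.24 and 0.56 at 1, 3 and 6 h. Lor and Flg stayed below the level of the test on every array. The part of epidermal tissue in the values of Krt4, Aqp5 and F3 was not tested.

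**Figure D4:**
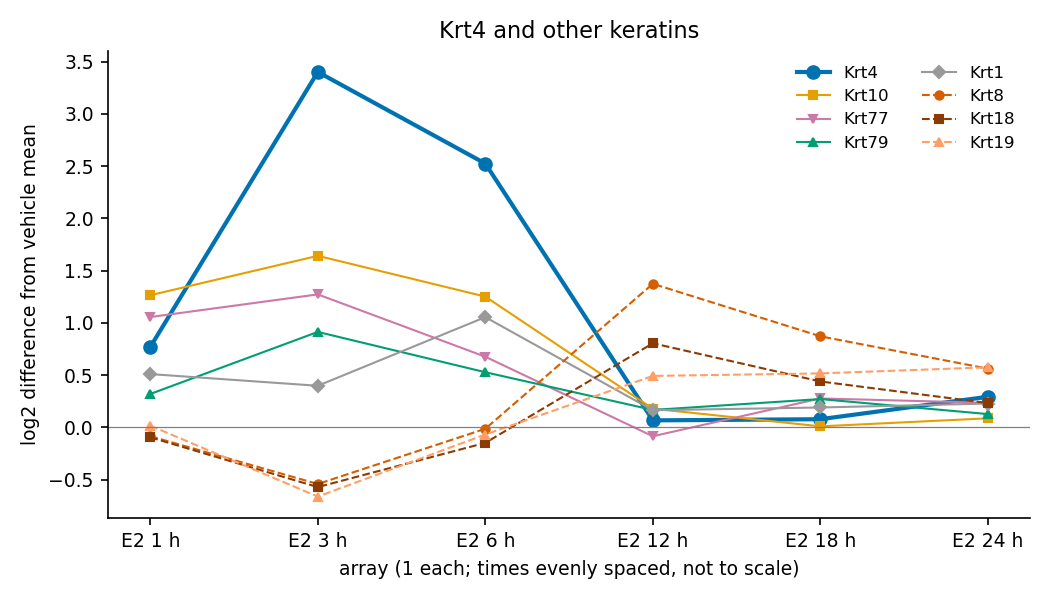
Log2 difference from the vehicle mean (vertical axis) of Krt4 and 7 other keratins on the E2 arrays (horizontal axis, times evenly spaced), with simple keratins as broken lines. Krt10, Krt77 and Krt79 are highest at 3 h with Krt4, while Krt8, Krt18 and Krt19 are lowest there and stand above vehicle at 12 h.

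The neighbourhood of each gene on its chromosome was compared, taking the 3 nearest protein-coding genes on each side in the RefSeq order of GRCm38.p6. Krt4 and Aqp5 both lie on chromosome 15, Krt4 in the type II keratin cluster and Aqp5 between Aqp2 and Aqp6, and F3 lies on chromosome 3. Of the 18 neighbours 17 were in the gene table and 9 were tested. Of these 9, 0 were past 1.5-fold from both vehicle arrays at 3 h and 1, Krt8, was at any time. At 3 h 0.568% of all tested genes were above and 0.229% below both by that fold. Krt77 and Krt79, below the level of the test, were above both by that fold at 3 h. The neighbours of Aqp5 lay between -0.03 and 0.09 at 3 h, with Faim2 at 0.06 and Aqp2 at 0.09 on one side and Aqp6 at -0.03 and Racgap1 at 0.01 on the other, and Bcdin3d at 0.06 and Asic1 at -0.02 farther out. Those of F3 lay between -0.17 for Arhgap29 and 0.14 for Abca4, with Abcd3 at -0.02, Cnn3 at 0.03 and Slc44a3 at -0.11. Those of Krt4 ran from -0.54 for Krt8 to 1.27 for Krt77, which lies on the other side of Krt76 from Krt4. Of the genes adjoining Krt4, Krt76 was at 0.14 and Krt79 at 0.91. Farther out, Krt1 was at 0.40 and Krt78 at 0.07.

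The rest of the aquaporin family stayed near vehicle. Of the 10 other aquaporin genes considered, 8 were tested, and 0 were past 1.5-fold in either direction at any time. At 3 h 0.568% of all tested genes were above and 0.229% below by that fold, so 0 of 8 is near the share over all genes. Some aquaporins, such as Aqp2 and Aqp4 at 8.01 and 8.04 on vehicle 1, stood little above the level of the test. Their differences at 3 h ran from -0.07 to 0.16, with Aqp1, the water channel of endothelium, at 0.16 and Aqp7, the glycerol channel of adipocytes, at 0.10. Among 10 tested genes of apical fluid secretion, Slc12a2, the chloride importer that drives secretion in glands, was 1.5-fold below both vehicle arrays at 3 h. It had log2 intensities of 11.63 and 11.88 on the vehicle arrays, 11.71 at 1 h, 11.01 at 3 h and 11.24 at 6 h after E2, and 11.79 at 12 h, 11.88 at 18 h and 11.83 at 24 h. Its 3 and 6 h arrays lay below both vehicle arrays. The 3 h difference of -0.74 did not pass in limma (adjusted p = 0.0908). Ano1, a chloride channel, lay at 0.30 at 3 h, and Clca3a2 at -0.29 at 3 h and 1.40 at 12 h.

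At 3 h, when F3 stood 2.10 above vehicle, 0.568% of all tested genes were at least 1.5-fold above and 0.229% below both vehicle arrays. Of 21 genes of the clotting cascade around tissue factor 10 were tested, and 0 were past that fold at 3 h, near that share. Their differences ran from -0.57 for Fgg, the fibrinogen gamma chain gene, to 0.14, with a median of -0.06. F7, the ligand of tissue factor, lay at 0.04, Tfpi, its inhibitor, at 0.07, and Thbd, the thrombin receptor thrombomodulin, at 0.14. F13a1, a subunit of the fibrin cross-linking factor XIII, lay at -0.18, and Fgb, the fibrinogen beta chain gene, at -0.42 and below the level of the test. Fgg was past 1.5-fold below both vehicle arrays at 6, 12 and 18 h, with -1.30 at 6 h, although its vehicle arrays differed by 0.62. The 7 tested genes of protease-activated receptors and plasminogen activation gave 0 past 1.5-fold at 3 h, also near the share over all genes. Among them F2r, a thrombin receptor, lay at 0.10 and Plat, tissue plasminogen activator, at -0.21. Serpinb2 lay at -0.44, and its vehicle arrays differed by 0.82.

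Regulators known from promoter studies, mostly of the human genes, to act on these promoters were a further list. Egr1 and the AP-1 proteins act on the tissue factor promoter, and Klf4 and Elf3 on that of keratin 4. Over all tested genes 0.568% were at least 1.5-fold above both vehicle arrays at 3 h and 0.229% below. Of 12 tested genes in this list, chosen with earlier results of these data known, 3 were above by that fold and 0 below. The 3 also passed in limma: Egr1 rose by 0.70 ± 0.08 (SE, adjusted p = 0.029), Junb by 0.62 ± 0.08 (SE, adjusted p = 0.0444) and Fosl2 by 0.61 ± 0.08 (SE, adjusted p = 0.0444), for 1 array against 2. Fos lay at 0.66 and did not pass (adjusted p = 0.0908). Egr1 had log2 intensities of 10.72 and 10.75 on the vehicle arrays. After E2 it was at 10.97 at 1 h, 11.43 at 3 h and 11.24 at 6 h. Later values were 10.94 at 12 h, 10.26 at 18 h and 10.32 at 24 h. It was thus highest at 3 h and below both vehicle arrays at 18 and 24 h. A role of Egr1 in the course of F3 was not tested. Among the other AP-1 genes Jun lay at 0.16 and Jund at 0.15 at 3 h. Below the level of the test, Fosb lay at 0.57 and Fosl1 at -0.20 at 3 h. Klf4 was at 0.13 at 3 h and Elf3 at -0.05. Esr1, the estrogen receptor alpha, was at -0.30 at 3 h and -0.99 at 6 h, where it was 1.5-fold below both vehicle arrays.

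Among 9 tested genes of estrogen response, 2 were at least 1.5-fold above and 1 below both vehicle arrays at 3 h, and the same 3 passed in limma. Pgr rose by 2.43 ± 0.15 (SE, adjusted p = 0.00716) and Errfi1, which restrains EGF receptor signalling, by 0.96 ± 0.08 (SE, adjusted p = 0.0133). Cited1, a transcriptional coactivator, fell by 0.93 ± 0.10 on the log2 scale (SE, adjusted p = 0.029). Over all tested genes 0.568% were at least 1.5-fold above and 0.229% below both vehicle arrays at 3 h. The estrogen response list was chosen with earlier results of these data known. The peaks of its genes did not all fall at 3 h. Errfi1 was highest at 1 h (1.48), and Cxcl15, an epithelial chemokine, at 6 h (1.81), when Krt4 stood at 2.53, F3 at 1.23 and Aqp5 at 0.72.

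The 9 related lists were chosen with earlier results of these data known. Nothing follows from how their shares compare with those of all tested genes. Over the 9 lists together 73 genes were tested, of which 6.85% were at least 1.5-fold above and 2.74% below both vehicle arrays at 3 h. Over all tested genes the share at least 1.5-fold above both was 0.568% at 3 h. The share below by that fold was 0.0275% at 1 h, 0.229% at 3 h and 0.156% at 6 h, and later it was 0.0641% at 12 h, 0.0183% at 18 h and 0.0275% at 24 h. In limma with 7 group means, 0.431% of tested genes passed as higher and 0.165% as lower at 3 h. The 23 genes of the cornified envelope and desmosome list had 9 tested members, of which 0 were past 1.5-fold at any time, with Dsg2 at 0.32, Sfn at 0.31 and Sbsn at 0.27 at 3 h.

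**Figure D5:**
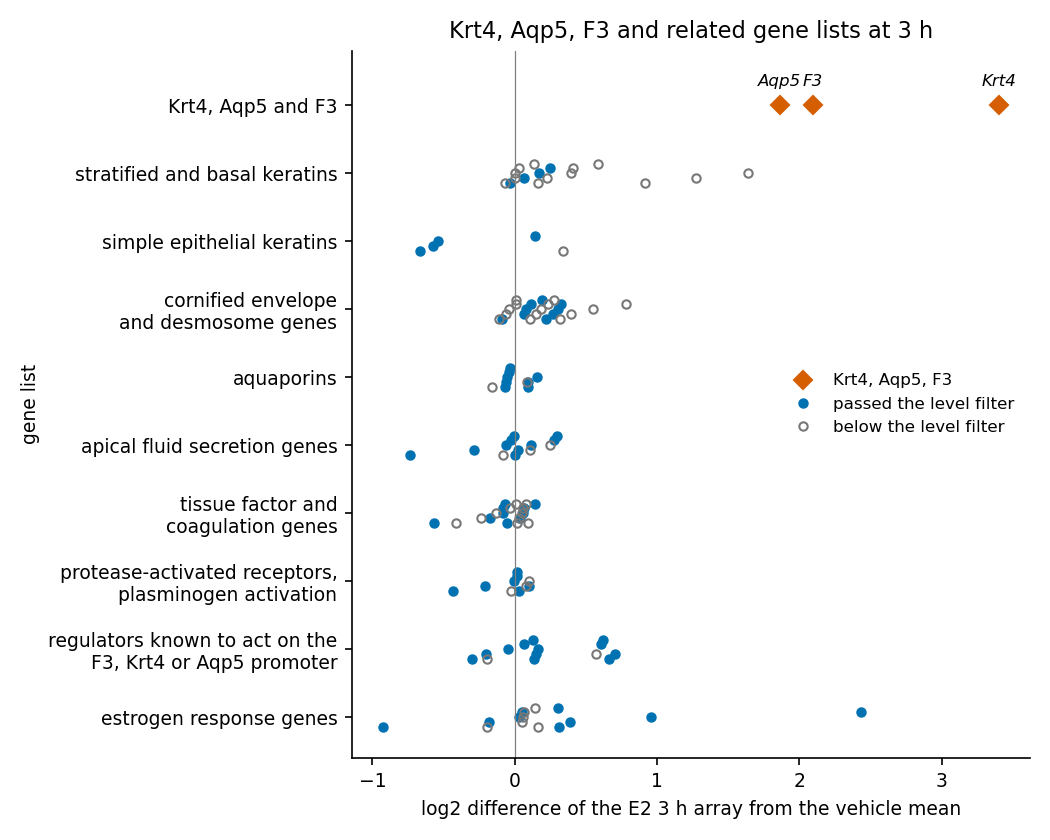
Log2 difference of the E2 3 h array from the vehicle mean for Krt4, Aqp5 and F3 (diamonds) and for each gene of the 9 related lists (rows), filled where the gene passed the level filter and open where it did not. Pgr at 2.43 is the list gene farthest to the right, and aquaporins other than Aqp5 lie between -0.16 and 0.16.

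Markers of other tissues also varied. Skeletal muscle markers, of which 17 of 20 were tested, averaged 0.82 at 1 h, 0.65 at 3 h and 1.28 at 6 h above the vehicle mean, and then 0.20 at 12 h, 0.84 at 18 h and 0.96 at 24 h. On the vehicle arrays they averaged 0.19 and -0.19. Their summed intensity ran from 17224 to 34925 on the E2 arrays, against 16646 and 12676 on the vehicle arrays. The differences of Krt4, Aqp5 and F3 at 18 and 24 h lay between -0.22 and 0.29. The part of muscle in the early values was not tested. Luminal markers averaged -0.04 at 3 h, when the 3 genes peaked, and 0.31 at 12 h. Myoepithelial markers (7 tested) averaged between 0.09 and 0.18 on the E2 arrays, and those of endothelium, macrophages and adipocytes stayed between -0.13 and 0.12 at all times. B lymphocyte markers (7 tested) averaged 0.13 at 3 h, -0.46 at 18 h and -0.45 at 24 h, and T lymphocyte markers (8 tested) averaged 0.08 at 3 h, -0.31 at 18 h and -0.22 at 24 h.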

How the data were processed

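Trizol-extracted total RNA gave biotinylated cRNA, per the labels, which was hybridised to Affymetrix arrays. GCOS 1.0 and RMA are named in the submitters' processing notes, without their role or order. The deposited values are intensity values on a linear scale that the authors had normalized together, from 13.8 to 23591. Log2 was taken and no further normalization was applied. The 64 control probe sets and the 932 with several gene symbols and 9160 with none were left out of the gene table, which left 34945. Each gene was represented by its probe set of highest mean. The number of arrays limits the precision.

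Single times were described by the fold from both vehicle arrays. For genes of the related lists, limma 3.58.1 under R 4.3.3 was fitted over 10916 genes (7 group means; 1 degree of freedom left), with a mean-variance trend, and adjusted by Benjamini-Hochberg with a threshold of 0.05 (two-sided). It assumes that single E2 arrays vary as the vehicle arrays do, and its p-values reflect only array-to-array spread, since nothing says that the arrays come from separate animals. The fit was tested on simulated data. Python 3.11.15 was used for the rest.

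The 3 genes, the lists and the tests were chosen with earlier results of these data known. Genes named were every probe set of the 3 genes, the 5 nearest profiles of each, the 3 nearest protein-coding neighbours on each side, and in each list the 3 largest absolute differences at 3 h plus genes 2-fold from both vehicle arrays at any time. A gene with no value in the gene table is not named, and other list members are named for their role, after their values were seen. The 139 list genes included 128 in the gene table. The alternatives were other normalizations, level filters, probe set rules, fold thresholds and leaving out each vehicle array.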

Additional observations from a re-analysis of the deposited data

How the results depend on the processing

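The highest E2 array was the 3 h array for Krt4, Aqp5 and F3 under quantile normalization, with arrays centred on their median and with all probe sets of a gene averaged. The 3 h difference moved by less than the vehicle SD under these, except for Krt4, which was at 2.87 with the mean of its probe sets and at 2.33 on the dimmer probe set (chosen after seeing the data) in place of 3.40. Without 1 vehicle array it ran from 3.30 to 3.51 for Krt4, from 1.74 to 1.98 for Aqp5 and from 1.93 to 2.26 for F3, a range that equals the gap between the 2 vehicle arrays by construction. The count of genes at least 2-fold above both vehicle arrays at 3 h, 15, was 8 with a filter at the 60th percentile, 62 at 1.5-fold, 47 in limma with 7 group means, and 20 to 23 without 1 vehicle array, the 23 being without vehicle 1. The 7 related list genes past 1.5-fold at 3 h were 11 with no level filter and 1 at 2-fold, and 9 to 10 without 1 vehicle array (alternatives chosen after seeing the data). No paired analysis was possible because each E2 time has 1 array and only the vehicle arrays carry a replicate number. Of the stratified and basal keratins 13 of 17 lay below the level filter, and 14 of 23 of the cornified envelope and desmosome genes.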

Other observations

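Of the 7277 genes below the level filter, 5 differed from both vehicle arrays by 2-fold or more at 3 h, among them the keratins Krt10 and Krt77, named after their values were seen. Of the 23 epidermal keratinocyte genes 20 lay lower than Krt4 (0.77) at 1 h, and the median of the 23 was 0.17, with a range from -0.14 to 1.27. The other 3, Krt10, Krt77 and Krtdap, were at 1.27, 1.06 and 0.98 at 1 h and at 1.64, 1.27 and 0.78 at 3 h, when Krt4 was at 3.40. Ivl, involucrin of the cornified envelope, was at 0.46, 0.32 and 0.21 at 1, 3 and 6 h, and Krt15 of basal cells at 0.48, 0.59 and 0.49. Krt14, the basal partner of Krt5, was at 0.22, 0.41 and 0.27.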
